A study of Mus musculus with 4 samples.

Results

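The 50 genes described here copy the chromosomes or divide them: 23 act in DNA replication, 7 at the step from the G1 phase of the cell cycle into S phase (G1/S) and 20 in mitosis. They were chosen by gene name, through the non-control probes of the array that carry that name, and not by a limit on signal. Earlier results of these data were known when the members and the further gene lists used below were chosen. Of the 50 genes, 47 were found by name and 46 had a value on all 4 arrays (20 replication, 7 G1/S and 19 mitosis genes), out of 35242 gene names with such a value. The single probe of Ttk was flagged as uneven or outlying on the ESC array, and Orc1, Orc2 and Orc6 stood on the array only under older names. These 4 genes are described by their values and are left out of the counts and medians.

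RNA of 4 mouse cell populations was hybridised to 1-colour Agilent arrays, 1 array each. The populations were the induced pluripotent stem (iPS) cell lines iPS-OSH and iPS-J, both of C57BL/6 background, embryonic stem cells (ESC) of 129SV background, and mouse embryonic fibroblasts (MEF) of C57BL/6 background. Induced pluripotent cells are body cells turned back to an embryonic stem cell state, and fibroblasts make connective tissue. Cultures of the pluripotent lines had the cytokine LIF and more serum than those of MEF, and the labels used here do not say how either iPS line was made or how fast any of the cultures grew.

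Before S phase the origin recognition complex, Cdc6 and Cdt1 load the ring of Mcm2 to Mcm7 proteins, the replicative helicase, onto origins of replication, and cyclin E with Cdk2 and the E2F transcription factors drive the entry into S phase. Cyclin B with Cdk1 starts mitosis, the spindle checkpoint holds it until every chromosome is attached, and separase then parts the sister chromatids. Mouse embryonic stem cells are known for short cell cycles with a brief G1 phase and much cyclin E with Cdk2, whereas embryonic fibroblasts spend longer in G1 and slow down with passage.

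Signals are given as relative signals, multiples of the 75th percentile of the processed signal of each array (1241 to 1765 intensity units), and differences as log2 of their ratio. With 1 array per population no difference has a replicate check, no p-value can be given, and 2-fold is a rule on size alone. From probes printed 10 times, the technical SD of a log2 difference was 0.12 to 0.20, without any spread between cultures. All of the arrays lay on 1 slide and were scanned in 3 sessions, of which the iPS lines shared 1 while ESC and MEF each had their own. In comparisons with MEF or ESC the scan session therefore cannot be told apart from the population, and in those with ESC neither can the strain. The share of spots well above background ran from 67.0% on the iPS-J array to 81.7% on the MEF array.

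The labels were checked on marker genes. All 12 pluripotency markers were well above background in iPS-OSH, iPS-J and ESC, with summed relative signals of 365, 494 and 538 against 1.87 for MEF, where Sox2, Zfp42, Dppa4, Tfcp2l1 and Dppa2 were not well above background. The 12 fibroblast markers summed to 318 for iPS-OSH, 57.1 for iPS-J and 45.6 for ESC against 1076 for MEF. By this sum iPS-OSH lay between the other pluripotent lines and MEF, although 1 of the 12 markers was higher in iPS-OSH than in MEF and 11 were lower. The 12 markers of primitive endoderm, an early extraembryonic tissue, summed to 36.9 for iPS-OSH, 206 for iPS-J and 37.6 for ESC against 56.0 for MEF. Their median signals gave another order, with MEF lowest: 0.526 for iPS-OSH, 4.84 for iPS-J and 0.552 for ESC against 0.169 for MEF. Of the fibroblast markers 12, 11, 12 and 12 were well above background in iPS-OSH, iPS-J, ESC and MEF, and of the endoderm markers 11, 11, 11 and 10. Col5a2 was not in iPS-J, Afp in none of the pluripotent lines, and Foxa2 and Ttr not in MEF. In bulk RNA, fewer cells of a type and less RNA per cell cannot be told apart.

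Most of the replication and mitosis genes had higher signals in the pluripotent lines than in MEF, and replication genes lay farther above MEF than mitosis genes. In iPS-OSH, 19 of 46 members were at least 2-fold higher than in MEF and 2 were at least 2-fold lower, where 13.7% and 25.1% of all genes were so. In iPS-J 29 were higher and 1 lower, against 16.2% and 26.2% of all genes, and in ESC 18 were higher and 1 lower, against 22.6% and 16.7%. The median log2 difference of the members was 0.72 for iPS-OSH, 1.17 for iPS-J and 0.86 for ESC, beside all-gene medians of -0.34, -0.31 and 0.13. Many members lay close to the 2-fold limit, with 6, 10 and 12 of them within 1 technical SD of it in iPS-OSH, iPS-J and ESC. The 3 comparisons share the MEF array, so they are not independent of one another.

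By group, the 20 replication genes had median differences from MEF of 0.91 for iPS-OSH, 1.32 for iPS-J and 1.06 for ESC, and 9, 14 and 11 of them were at least 2-fold higher with 0 lower. The 19 mitosis genes had medians of 0.40 for iPS-OSH, 1.05 for iPS-J and 0.73 for ESC, with 7, 11 and 6 at least 2-fold higher, and Aurkb in iPS-OSH was the single mitosis gene that was at least 2-fold lower. The 7 G1/S genes had medians of 0.84 for iPS-OSH, 1.12 for iPS-J and 0.70 for ESC, with 3, 4 and 1 at least 2-fold higher and Ccne2 lower in each. Of all genes, 13.7% for iPS-OSH, 16.2% for iPS-J and 22.6% for ESC passed the same upper limit. Each group exceeded that share in the iPS lines, and so did the replication genes in ESC. The 6 of 19 mitosis genes in ESC were not far above it, and the 1 of 7 G1/S genes fell below it. The mitosis median lay below the replication median by 0.51 for iPS-OSH, 0.27 for iPS-J and 0.33 for ESC. Scaling by 1 factor per array cannot move this gap, but quantile normalization and other alternatives can, and over all of them it lay between -0.74 and -0.41 in iPS-OSH, -0.44 and -0.23 in iPS-J, and -0.65 and -0.21 in ESC. By these medians each pluripotent line lay farther above MEF in replication than in mitosis genes, and the gap was widest in iPS-OSH.

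**Figure D1:**
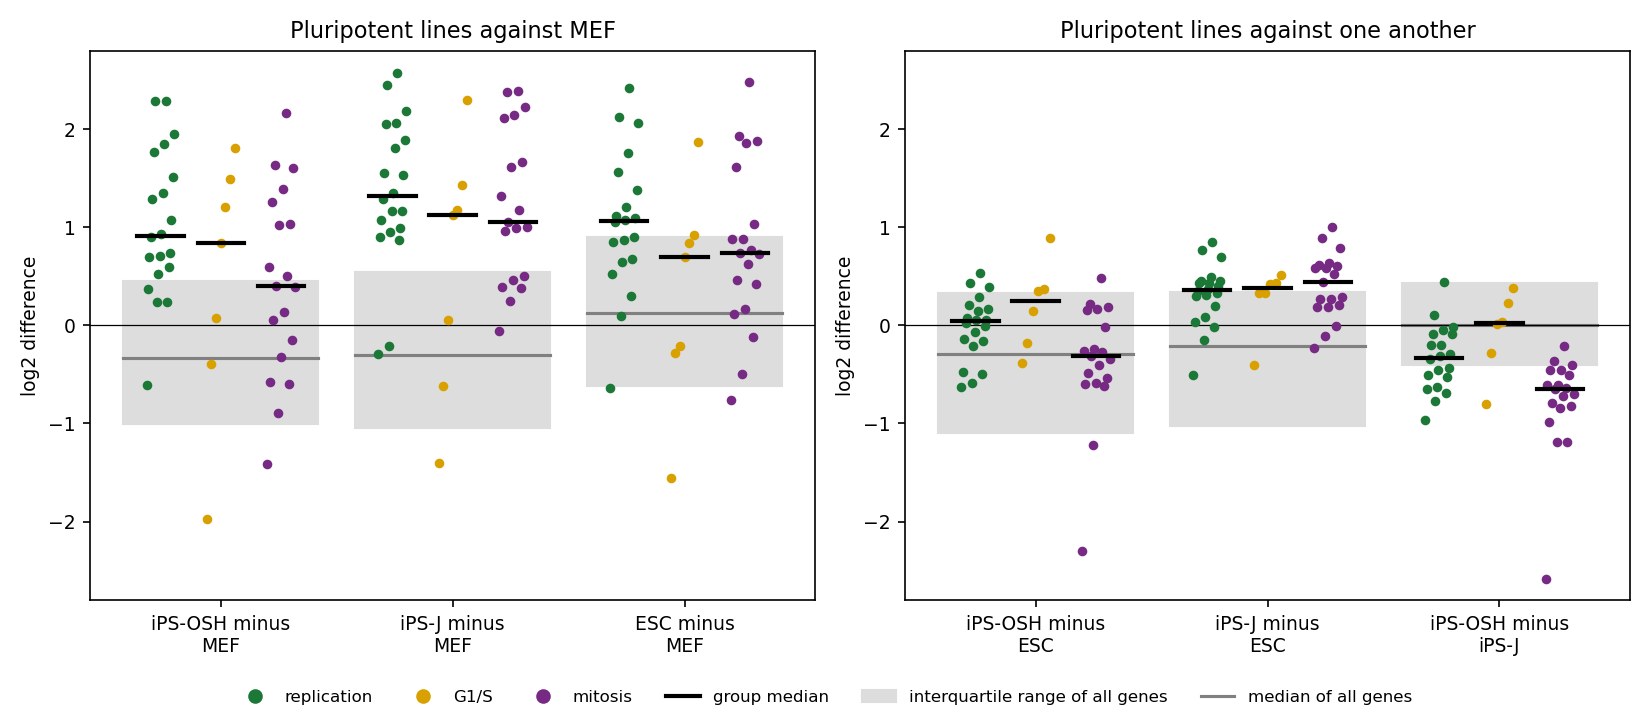
Log2 differences of the members with a value (points, by group) in the 6 comparisons, with group medians as black bars, the interquartile range of all genes as grey boxes and their median as a grey line. Against MEF (left) the replication medians of 0.91, 1.32 and 1.06 lie above the mitosis medians of 0.40, 1.05 and 0.73. Between iPS-OSH and iPS-J (right) every mitosis gene lies below 0.

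Genes that prepare origins of replication had some of the largest differences from MEF. Cdt1, the loading factor that brings the helicase to origins (probe on mm9 chromosome 8, positions 125096893 to 125096952), had relative signals of 29.0 for iPS-OSH, 41.0 for iPS-J and 40.2 for ESC against 7.50 for MEF. It was 3.86-fold, 5.47-fold and 5.36-fold higher than in MEF, and its signal in iPS-OSH was below that of the other pluripotent lines. Gmnn encodes geminin, the inhibitor of Cdt1 that stops a second round of loading. Its relative signals were 5.09 for iPS-OSH, 8.71 for iPS-J and 4.82 for ESC against 2.08 for MEF, so the loader and its inhibitor were both at least 2-fold higher in all of the pluripotent lines. Cdc6, the ATPase that works with Cdt1, had 3.56 for iPS-OSH, 3.61 for iPS-J and 2.63 for ESC against 1.25 for MEF. A second, dimmer Cdc6 probe did not follow it in iPS-OSH, with differences from MEF of -0.10 for iPS-OSH, 0.47 for iPS-J and 0.94 for ESC.

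The origin recognition complex marks the places where loading occurs. Orc1, its ATPase subunit, was present under an older name with 2.96 for iPS-OSH, 2.96 for iPS-J and 2.71 for ESC against 0.362 for MEF. These signals were 8.20-fold, 8.19-fold and 7.48-fold above MEF, a wider gap than that of any of the 46 members counted. Orc2, another core subunit, had 3.70 for iPS-OSH, 2.42 for iPS-J and 1.18 for ESC against 1.01 for MEF, and thus stood in ESC near the level of MEF. Orc6, the smallest subunit, had 17.8 for iPS-OSH, 28.5 for iPS-J and 28.8 for ESC against 12.2 for MEF.

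The helicase subunits Mcm2 to Mcm7 were all higher than in MEF, with medians of 1.56 for iPS-OSH, 1.68 for iPS-J and 1.22 for ESC. Mcm3 (mm9 chromosome 1, positions 20793119 to 20793178) had relative signals of 65.6 for iPS-OSH, 61.2 for iPS-J and 45.3 for ESC against 13.4 for MEF. Its second probe, which overlaps the first, gave smaller differences of 1.33, 1.15 and 0.80 where the first gave 2.29, 2.19 and 1.76. Mcm5 had 36.4 for iPS-OSH, 41.8 for iPS-J and 42.2 for ESC against 10.1 for MEF. Mcm2 had 25.9 for iPS-OSH, 26.7 for iPS-J and 19.8 for ESC against 7.60 for MEF. Mcm6, Mcm7 and Mcm4 lay 1.60-fold to 2.93-fold above MEF over the 3 lines. The probes of these subunits thus differed from MEF by unequal amounts, as the overlapping Mcm3 probes did too. Mcm10, which helps to switch the loaded helicase on, had 14.9 for iPS-OSH, 18.2 for iPS-J and 13.3 for ESC against 3.06 for MEF, or 4.88-fold, 5.96-fold and 4.35-fold more. Cdc45, a cofactor of the running helicase, was dim, with 0.532 for iPS-OSH, 0.717 for iPS-J and 0.798 for ESC against 0.370 for MEF.

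**Figure D2:**
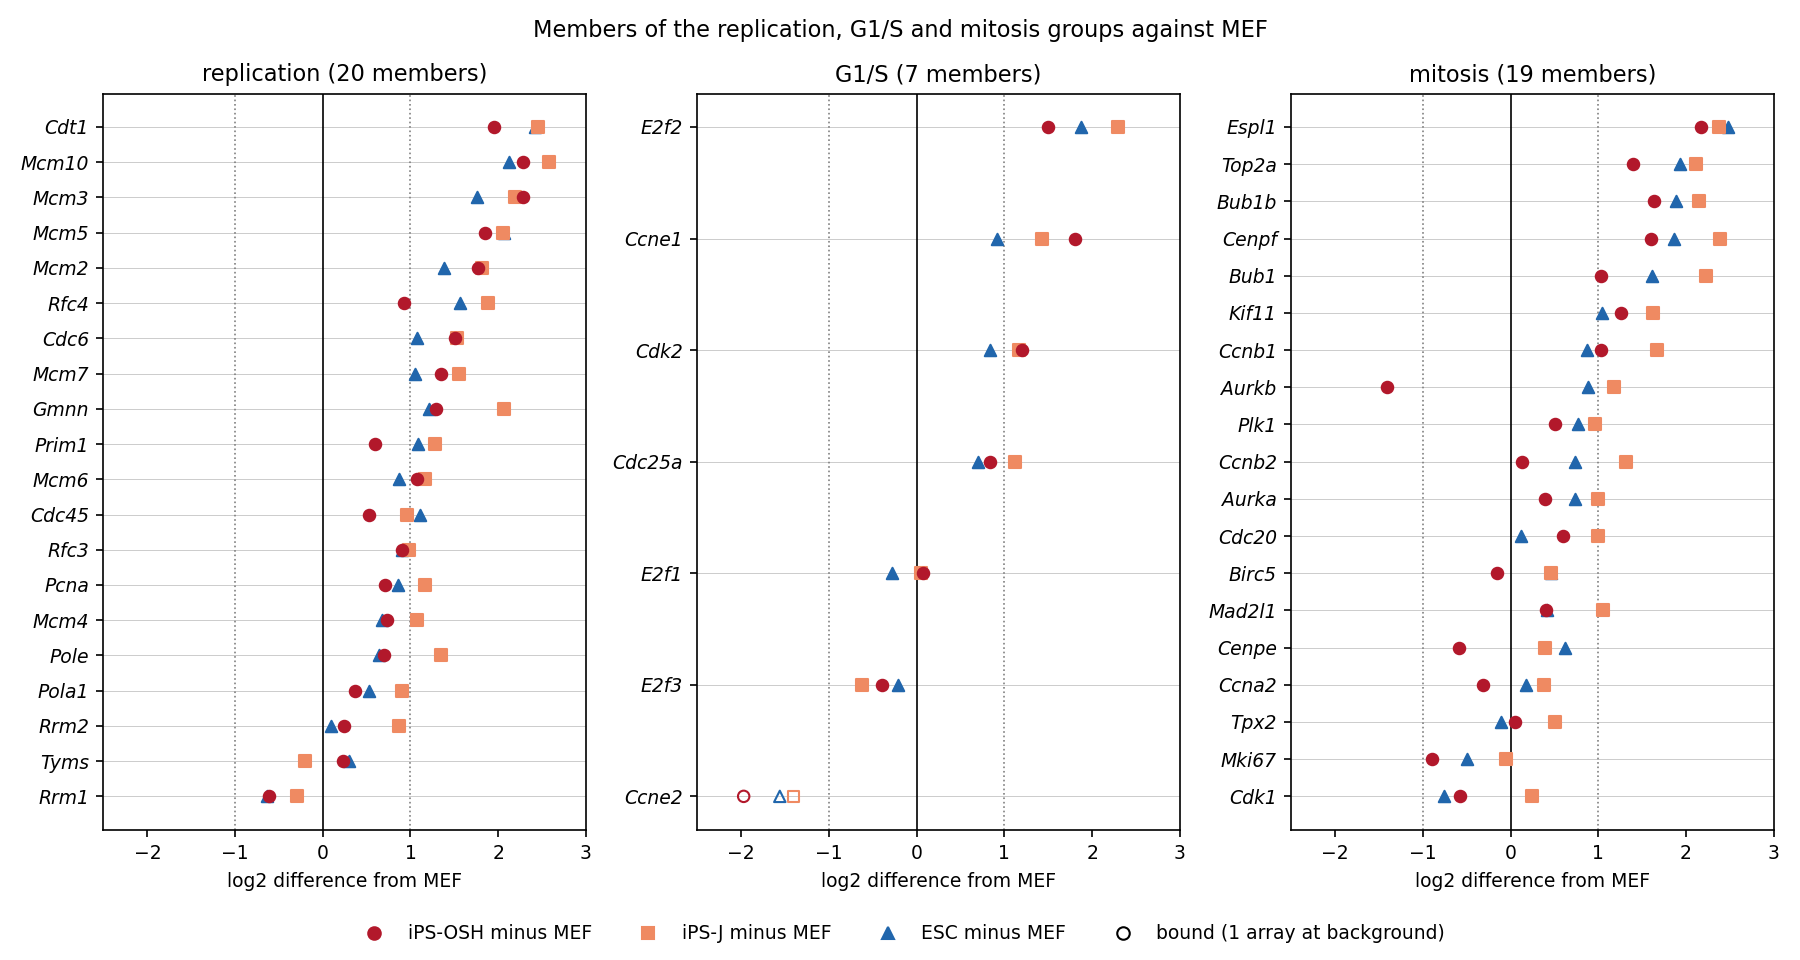
Log2 difference from MEF (x axis) of each member with a value, in iPS-OSH (circles), iPS-J (squares) and ESC (triangles), with dotted lines at 2-fold and open symbols for bounds. Cdt1 and Mcm10 lead the replication genes, E2f2 the G1/S genes and Espl1 the mitosis genes. Among the members that reach below 0 in some line are Rrm1, E2f3, Ccne2, Mki67, Cdk1 and Aurkb.

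Among the members for the sliding clamp, its loader, the polymerases and the primase the median differences were smaller than for the helicase subunits. Some fork genes of the wider list, such as Dna2 and Rfc5 described below, had larger differences. Pcna, Rfc3, Rfc4, Pola1, Pole and Prim1, which encode the sliding clamp, parts of its loader, catalytic subunits of polymerases alpha and epsilon and the primase, had medians of 0.70 for iPS-OSH, 1.22 for iPS-J and 0.88 for ESC. In iPS-OSH 0 of these 6 genes were at least 2-fold higher than in MEF, in iPS-J 4 were and in ESC 2. Rfc4 had 12.5 for iPS-OSH, 24.3 for iPS-J and 19.3 for ESC against 6.56 for MEF, and its signal in iPS-OSH was 1.95-fold below iPS-J. Pola1 had 4.83 for iPS-OSH, 6.99 for iPS-J and 5.39 for ESC against 3.74 for MEF. Pole had 10.0 for iPS-OSH, 15.7 for iPS-J and 9.66 for ESC against 6.18 for MEF. The dimmer probes of Pole gave other sizes, and 1 of them differed from MEF by 0.74 for iPS-OSH, 2.36 for iPS-J and 2.67 for ESC. Pcna had 49.8 for iPS-OSH, 68.0 for iPS-J and 54.9 for ESC against 30.4 for MEF. Rfc3 lay 1.86-fold to 1.98-fold above MEF in the 3 lines, and Prim1 1.51-fold to 2.44-fold. All 6 of these fork genes were thus above MEF in each pluripotent line, with the highest signal in iPS-J under the main scaling.

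The 3 members of nucleotide supply lay nearer to MEF, with medians of 0.23 for iPS-OSH, -0.21 for iPS-J and 0.10 for ESC. Those of iPS-J and ESC changed sign under other scalings. Not every such gene of the wider list lay near MEF, as Rrm2b described below did not. Rrm1, the large subunit of ribonucleotide reductase, had 15.0 for iPS-OSH, 18.7 for iPS-J and 14.7 for ESC against 22.9 for MEF, and was the single replication gene whose signal was highest in MEF. Its difference of -0.29 in iPS-J turned to 0.01 where arrays were centred on the median of all genes. Rrm2, the small subunit that is made in S phase, had 34.3 for iPS-OSH, 52.9 for iPS-J and 31.0 for ESC against 29.0 for MEF, and was above MEF in iPS-J under every alternative run (0.36 to 1.18). Tyms, the thymidylate synthase gene, was dim, with 0.587 for iPS-OSH, 0.433 for iPS-J and 0.616 for ESC against 0.499 for MEF. None of these 3 genes differed by 2-fold in any comparison, and the signs of Tyms in iPS-J and ESC and of Rrm2 in ESC changed under other scalings.

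The promoters of some of these genes are shown because replication and mitosis genes are textbook targets of different promoter elements, E2F sites in the one case and the cell cycle genes homology region (CHR) in the other. RefSeq promoters (GRCm38) were found for 43 of the 50 genes, in 47 windows of the 250 bases before a start site. The E2F motif was searched as TTTCCCGC, TTTCGCGC, TTTGCCGC or TTTGGCGC, the CHR as TTTGAA and the CCAAT box as CCAAT, each on both strands, and matches of the E2F letters on opposite strands can overlap. An E2F match lay in 7 of 22 windows of replication genes (31.8%), 3 of 8 of G1/S genes (37.5%) and 1 of 17 of mitosis genes (5.88%), against 1.86% of all 32851 promoter windows. In general lists of other genes of these pathways the split was narrower, with 14.0% of the windows of other replication genes and 9.41% of those of other mitosis genes. A match is a description of the letters and not of a bound site. In the windows of Mcm5 (chr8:75109259-75109508, plus strand), Mcm6 (chr1:128359706-128359955, minus strand), Orc1 (chr4:108579204-108579453, plus strand) and Cdc25a (chr9:109875329-109875578, plus strand), written 5′ to 3′ along the gene, capitals mark E2F and CCAAT matches.
Mcm5: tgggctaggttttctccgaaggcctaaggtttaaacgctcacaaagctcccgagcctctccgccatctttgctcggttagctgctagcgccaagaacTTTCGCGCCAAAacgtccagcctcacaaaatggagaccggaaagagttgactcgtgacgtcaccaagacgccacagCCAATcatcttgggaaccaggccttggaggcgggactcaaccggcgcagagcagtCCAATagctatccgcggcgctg
Mcm6: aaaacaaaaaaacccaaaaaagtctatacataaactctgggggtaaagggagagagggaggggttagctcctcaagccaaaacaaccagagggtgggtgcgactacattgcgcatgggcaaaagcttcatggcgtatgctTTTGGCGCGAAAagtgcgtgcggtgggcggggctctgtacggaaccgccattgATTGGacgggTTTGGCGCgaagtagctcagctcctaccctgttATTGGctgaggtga
Orc1: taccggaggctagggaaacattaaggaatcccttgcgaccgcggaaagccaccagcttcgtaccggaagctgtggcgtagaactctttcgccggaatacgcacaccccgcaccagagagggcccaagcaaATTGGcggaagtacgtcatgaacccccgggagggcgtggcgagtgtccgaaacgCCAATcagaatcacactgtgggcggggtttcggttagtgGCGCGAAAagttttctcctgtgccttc
Cdc25a: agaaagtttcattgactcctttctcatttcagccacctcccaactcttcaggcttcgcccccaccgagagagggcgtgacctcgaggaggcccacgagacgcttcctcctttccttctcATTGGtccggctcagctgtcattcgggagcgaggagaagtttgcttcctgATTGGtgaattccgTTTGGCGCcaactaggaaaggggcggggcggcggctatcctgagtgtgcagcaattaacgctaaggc
Mcm5 and Mcm6 each hold overlapping E2F matches, at 149 and 153 bases before the start in Mcm5 and at 106 and 110 in Mcm6, which has a further match at 47. Orc1 has 1 match at 27 bases and Cdc25a 1 at 67. Further members with an E2F match were Mcm7, Rfc3, Cdc6, Pola1, Cdk2, E2f3 and Cdk1. Cdt1 and Mcm10, with the largest median differences from MEF among the replication genes counted, had no E2F match in the window.

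At the step into S phase the members went different ways. Ccne1, the gene of cyclin E1 (mm9 chromosome 7, positions 38882937 to 38882960), had relative signals of 48.8 for iPS-OSH, 37.5 for iPS-J and 26.3 for ESC against 13.9 for MEF. It was 3.50-fold, 2.69-fold and 1.89-fold above MEF, and its second probe gave differences of 2.50, 2.37 and 1.88. Ccne2, the gene of the related cyclin E2, had 0.0186 for iPS-OSH, 0.0276 for iPS-J and 0.00617 for ESC, all not well above background, against 0.0728 for MEF. In iPS-OSH, iPS-J and ESC it was at least 3.92-fold, 2.64-fold and 2.95-fold lower. With normexp background correction the log2 differences were -0.84 for iPS-OSH, -0.37 for iPS-J and -0.53 for ESC, under 2-fold in each line, and with quantile normalization iPS-J was at -0.90. Cyclin E1 and cyclin E2 genes thus stood on opposite sides of MEF in the main values, on a bright and a dim probe. With a detection limit taken from the ERCC control probes, Ccne2 had no value for its difference from MEF in any line.

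Cdk2, the kinase that cyclin E binds, had 2.08 for iPS-OSH, 2.04 for iPS-J and 1.62 for ESC against 0.904 for MEF. Cdc25a, the phosphatase that activates Cdk2, had 7.26 for iPS-OSH, 8.85 for iPS-J and 6.59 for ESC against 4.06 for MEF. Both were thus higher in the 3 pluripotent lines, by 1.62-fold to 2.30-fold. Among the E2F factors, E2f2 had 1.64 for iPS-OSH, 2.85 for iPS-J and 2.13 for ESC against 0.582 for MEF, or 2.81-fold, 4.90-fold and 3.66-fold more. E2f1 had 2.98 for iPS-OSH, 2.94 for iPS-J and 2.34 for ESC against 2.83 for MEF. E2f3 had 2.19 for iPS-OSH, 1.88 for iPS-J and 2.49 for ESC against 2.88 for MEF. The 3 genes encode the activating E2F factors, and E2f2 was the single one of them that differed from MEF by 2-fold. A dim second probe of E2f3 gave differences of 0.16 for iPS-OSH, -0.50 for iPS-J and -0.78 for ESC, and the difference of 0.07 or less of E2f1 in the iPS lines changed sign under other scalings.

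**Figure D3:**
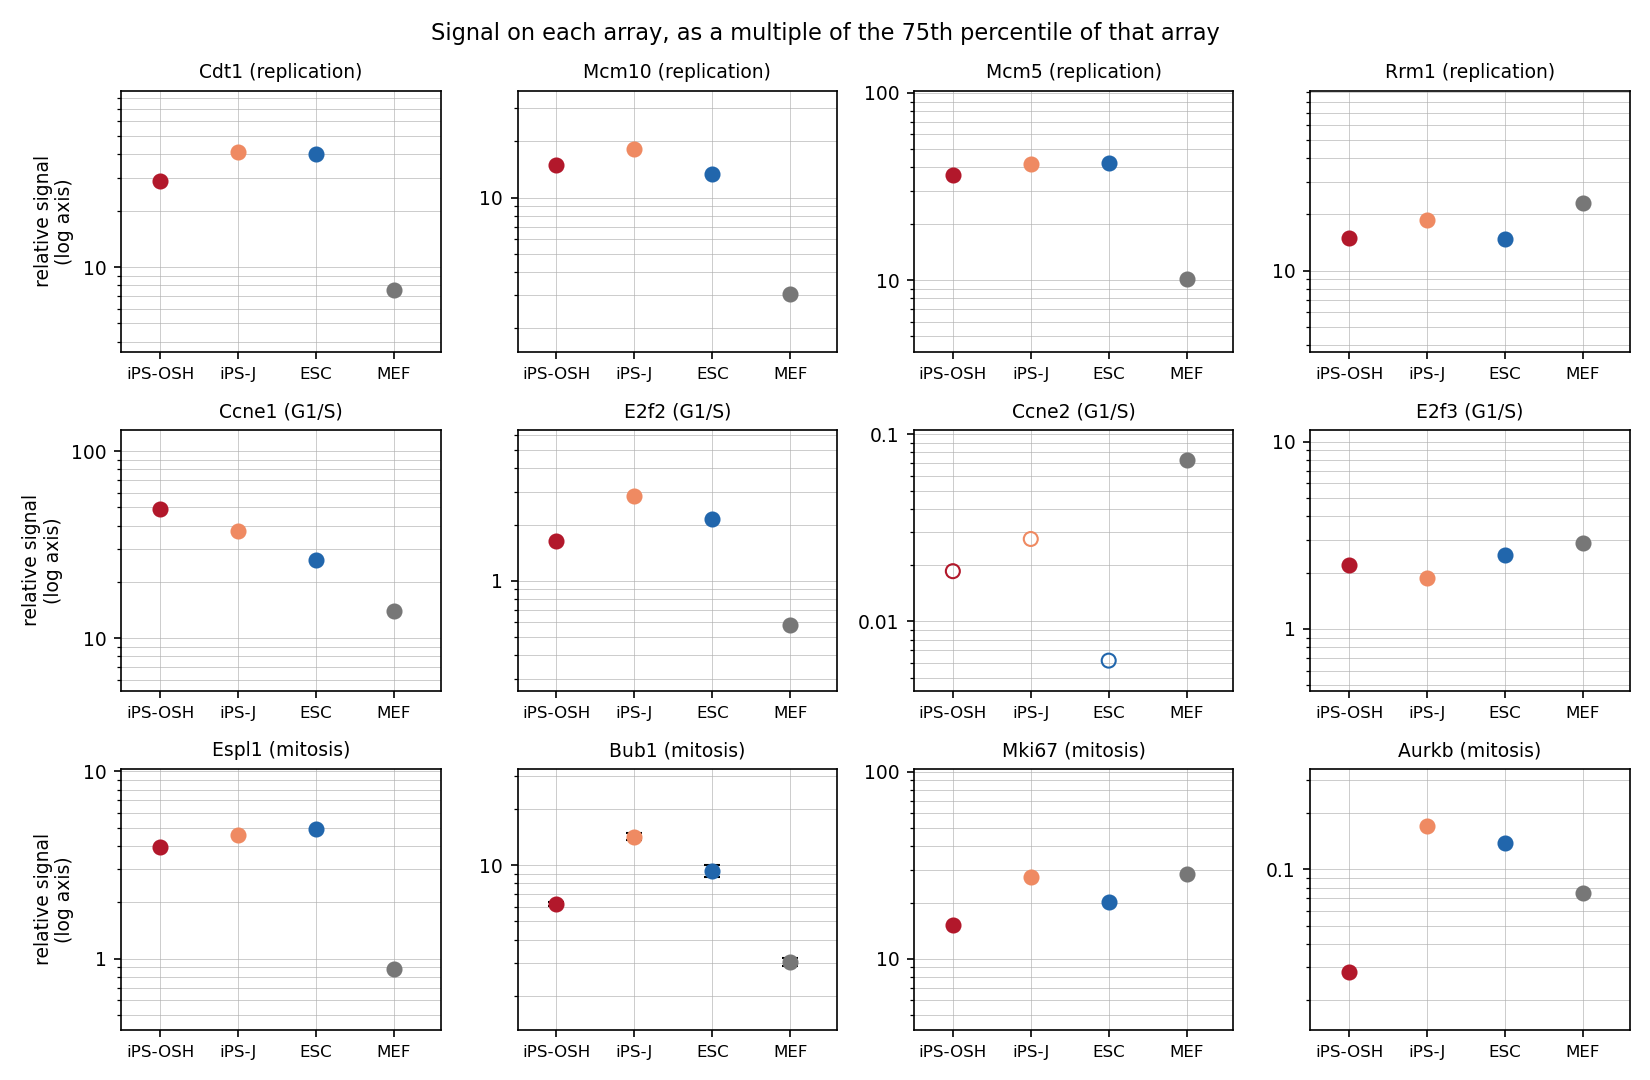
Relative signal (log axis) of 12 members on each array, from left to right iPS-OSH, iPS-J, ESC and MEF, with open points where a probe was not well above background and bars for the SD over the 10 spots of Bub1. Cdt1, Mcm10, Mcm5, E2f2 and Espl1 are lowest in MEF, Ccne1 is highest in iPS-OSH, and Aurkb is lowest in iPS-OSH.

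The mitosis genes held both some of the largest and some of the smallest differences from MEF. Espl1 encodes separase, the protease that parts sister chromatids (mm9 chromosome 15, positions 102153644 to 102153882). It had relative signals of 3.94 for iPS-OSH, 4.55 for iPS-J and 4.91 for ESC against 0.877 for MEF, and was 4.49-fold, 5.19-fold and 5.59-fold higher. Top2a, the topoisomerase that disentangles chromosomes, had 12.3 for iPS-OSH, 20.4 for iPS-J and 17.9 for ESC against 4.70 for MEF.

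The spindle checkpoint genes Bub1, Bub1b and Mad2l1 and their target Cdc20 had medians above MEF of 0.81 for iPS-OSH, 1.60 for iPS-J and 1.02 for ESC. Bub1, a checkpoint kinase, is the member whose probe was printed 10 times, and its mean relative signals were 6.20 ± 0.14 for iPS-OSH, 14.2 ± 0.60 for iPS-J and 9.33 ± 0.71 for ESC against 3.04 ± 0.15 for MEF (SD over 10 spots, 9 in MEF). These spots did not overlap between any 2 arrays, but they share the labelled RNA and measure spot noise only. Bub1b, which encodes the checkpoint protein BubR1, had 8.53 for iPS-OSH, 12.1 for iPS-J and 10.1 for ESC against 2.74 for MEF. Mad2l1, an inhibitor of Cdc20, had 12.6 for iPS-OSH, 19.7 for iPS-J and 12.7 for ESC against 9.54 for MEF. Cdc20, the activator of the anaphase promoting complex, had 44.3 for iPS-OSH, 58.7 for iPS-J and 31.8 for ESC against 29.4 for MEF. Ttk, the checkpoint kinase Mps1, had 1.04 in iPS-OSH and 1.23 in iPS-J against 0.365 for MEF, where its ESC spot was left out.

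The cyclins and the kinase that start mitosis had medians of -0.09 for iPS-OSH, 0.85 for iPS-J and 0.45 for ESC. These medians lay nearer to MEF than those of the checkpoint genes with Cdc20. Ccnb1 lay farther above MEF, by 1.03, 1.67 and 0.88 in the same order. Ccna2, the gene of cyclin A2, lay 1.25-fold below MEF in iPS-OSH and 1.30-fold and 1.13-fold above it in iPS-J and ESC, with signs that changed under other scalings. Cdk1, the kinase itself, had relative signals of 8.0 for iPS-OSH, 14.1 for iPS-J and 7.03 for ESC against 11.9 for MEF. Its brightest probe thus stood below MEF in iPS-OSH and ESC and above it in iPS-J, a difference of 0.25 that turned sign under 3 of the alternatives. A pair of dimmer Cdk1 probes disagreed, the one with differences of -0.25 for iPS-OSH, 0.17 for iPS-J and 0.50 for ESC, the other with -0.99, -0.66 and -1.69. Ccnb1, a B cyclin gene, had 18.0 for iPS-OSH, 28.1 for iPS-J and 16.2 for ESC against 8.82 for MEF, and its other probes gave larger differences from MEF of 2.06 to 3.08. Ccnb2, the other B cyclin gene, had 20.0 for iPS-OSH, 45.6 for iPS-J and 30.4 for ESC against 18.3 for MEF.

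Among the mitotic kinases, Aurka, which acts at spindle poles, and Plk1, a Polo kinase, were 1.31-fold to 1.99-fold higher than MEF in the pluripotent lines. Birc5 encodes survivin, the partner of Aurora B, and its brightest probe differed from MEF by at most 1.38-fold in every pluripotent line, with signs that changed under other alternatives. A dimmer Birc5 probe gave log2 differences of 0.15 for iPS-OSH, 0.82 for iPS-J and 1.12 for ESC. Aurkb, the gene of Aurora B itself, had 0.0282 for iPS-OSH, 0.170 for iPS-J and 0.139 for ESC against 0.0751 for MEF. It was 2.66-fold lower than MEF in iPS-OSH, but 2.26-fold and 1.85-fold higher in iPS-J and ESC, on a dim probe. With another background correction (normexp) the difference of iPS-OSH from MEF was -0.71 on the log2 scale, where the main value was -1.41.

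Of the spindle and kinetochore genes, Cenpf, a kinetochore protein gene with a dim probe, had 0.240 for iPS-OSH, 0.414 for iPS-J and 0.287 for ESC against 0.0791 for MEF. Kif11, the kinesin that pushes spindle poles apart, was 2.39-fold, 3.07-fold and 2.05-fold above MEF in the same order of lines. Cenpe, a kinesin of the kinetochore, had 8.88 for iPS-OSH, 17.5 for iPS-J and 20.7 for ESC against 13.4 for MEF. Tpx2, a spindle assembly factor that activates Aurora A, had 12.7 for iPS-OSH, 17.4 for iPS-J and 11.3 for ESC against 12.2 for MEF. Mki67, the gene of the proliferation marker Ki-67, had 15.3 for iPS-OSH, 27.4 for iPS-J and 20.2 for ESC against 28.4 for MEF. Its second probe gave differences of -0.50, 0.36 and -0.12 where the first gave -0.90, -0.05 and -0.50. Mki67 was thus the single mitosis gene whose brightest probe was highest in MEF, but in iPS-J its sign depended on the probe, the background correction and the centring.

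In the promoter windows of mitosis genes the CHR letters lay in 7 of 17 (41.2%), against 9.09% of those of replication genes, 16.0% of all promoter windows and 28.2% of those of other mitosis genes of a general list. CCAAT lay in 15 of 17 windows of mitosis genes (88.2%) and in 17 of 22 of replication genes (77.3%), against 33.8% of all, and 58.8% and 31.8% held it more than once, against 10.1% of all. In the general lists CCAAT lay in 52.9% of the windows of other mitosis genes and in 38.0% of those of other replication genes. The windows of Top2a (chr11:99024190-99024439, minus strand), Espl1 (chr15:102296043-102296292, plus strand), Ccnb2 (chr9:70421555-70421804, minus strand) and Cdk1 (chr10:69352913-69353162, minus strand) are shown as mitosis genes with a CHR match, with capitals for E2F, CHR and CCAAT matches.
Top2a: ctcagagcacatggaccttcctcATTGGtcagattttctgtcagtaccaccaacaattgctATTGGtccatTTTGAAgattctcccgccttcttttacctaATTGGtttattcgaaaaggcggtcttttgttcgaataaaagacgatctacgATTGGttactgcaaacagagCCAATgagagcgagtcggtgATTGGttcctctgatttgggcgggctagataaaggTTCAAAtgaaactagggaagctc
Espl1: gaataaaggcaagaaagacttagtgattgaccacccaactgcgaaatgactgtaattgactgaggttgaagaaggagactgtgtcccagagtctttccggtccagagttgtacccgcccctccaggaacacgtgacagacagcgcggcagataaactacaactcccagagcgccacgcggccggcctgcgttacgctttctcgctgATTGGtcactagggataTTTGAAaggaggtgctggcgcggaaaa
Ccnb2: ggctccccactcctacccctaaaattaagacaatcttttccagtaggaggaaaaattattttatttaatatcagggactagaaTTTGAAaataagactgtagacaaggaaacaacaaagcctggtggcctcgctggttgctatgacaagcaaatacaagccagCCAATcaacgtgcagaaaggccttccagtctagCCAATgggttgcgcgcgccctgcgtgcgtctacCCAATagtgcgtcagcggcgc
Cdk1: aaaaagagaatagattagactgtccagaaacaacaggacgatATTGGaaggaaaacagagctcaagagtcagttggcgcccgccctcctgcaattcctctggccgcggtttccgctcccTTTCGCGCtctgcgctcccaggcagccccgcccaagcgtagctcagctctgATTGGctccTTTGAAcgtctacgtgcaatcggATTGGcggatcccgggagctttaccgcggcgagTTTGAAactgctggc
Top2a has CHR matches at 179 and 23 bases before the start and 6 CCAAT matches, and Espl1 has a CHR match at 27 and a CCAAT match at 44. Ccnb2 has its CHR letters farther out, at 167 bases, with CCAAT at 87, 54 and 21. Cdk1 was the single mitosis gene with an E2F match, at 131 bases, beside CHR matches at 71 and 15. The further mitosis genes with a CHR match were Cdc20, Mki67 and Kif11. Genes with a CHR match occurred at both ends of the differences from MEF: Top2a and Espl1 lay far above MEF in all of the lines, and Cdk1 and Mki67 did not.

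**Figure D4:**
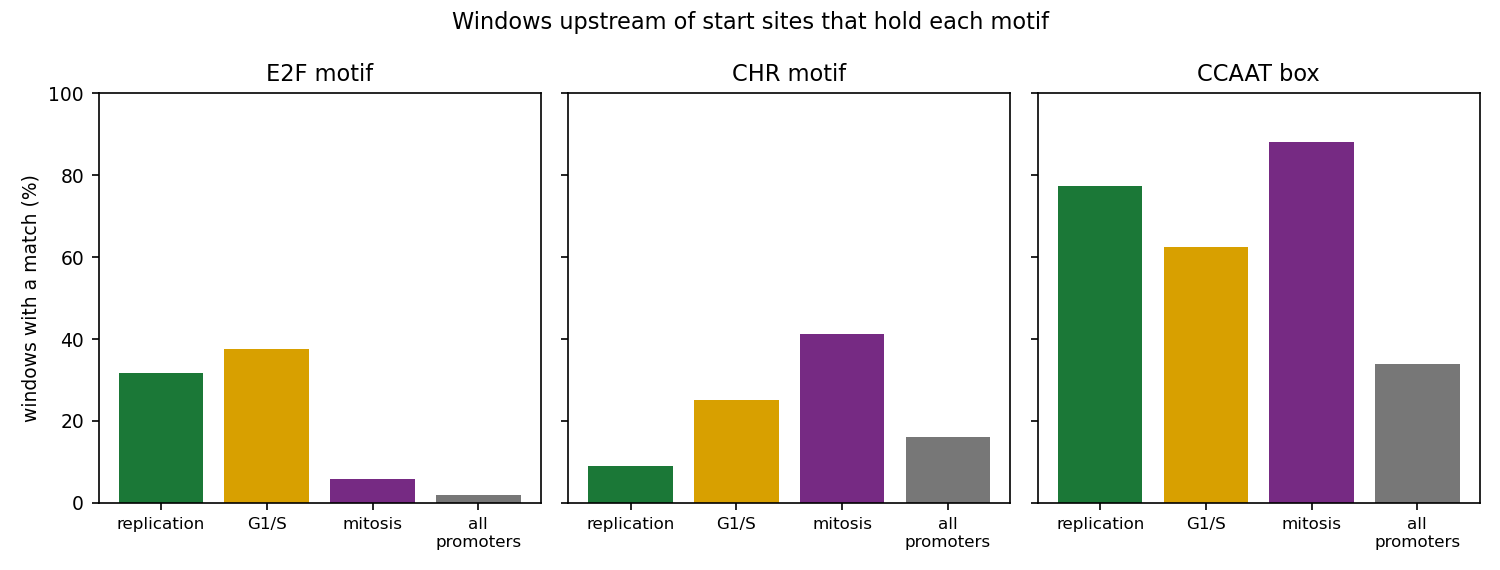
Share of the windows upstream of start sites (y axis, percent) that hold an E2F motif, a CHR motif or a CCAAT box, for replication, G1/S and mitosis genes and for all promoters. E2F matches lie in 31.8% of replication and 5.88% of mitosis windows, and CHR matches in 41.2% of mitosis and 9.09% of replication windows.

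The comparison of the iPS lines, made within 1 scan session and 1 strain, set the groups apart. In iPS-OSH the signal of each of the 19 mitosis genes was lower than in iPS-J, with a median difference of -0.65, and 3 of them were at least 2-fold lower, where 7.37% of all genes were so. No member was at least 2-fold higher, where 8.91% of all genes were. Of the 20 replication genes 18 were lower, with a median of -0.33, and 0 reached 2-fold. Of 6 G1/S genes 2 were lower, with a median of 0.02, and the median of all genes was 0.01. The technical SD of this difference was 0.12.

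Over the scaling and other alternatives the mitosis median lay between -0.65 and -0.31, and 18 of 19 genes were lower in iPS-OSH under all of them, the exception being Espl1. The replication median ran from -0.34 to 0.01, and 8 of its 20 genes changed sign, all of them in the values deposited without scaling, where the median of all genes stood at 0.33. Since such a shift moves all genes alike, the sign changes in the deposited values only restate that the replication genes lay nearer to 0. Mcm2, Mcm6 and Mcm7 also changed sign with quantile normalization, and Mcm5 with normexp background correction. The iPS-J array was also the dimmest by its 75th percentile, and the unscaled values brought the median of all 45 members compared to -0.13 where the scaled one was -0.46. The gap between mitosis and replication medians was -0.32 and lay between -0.34 and -0.27 over the alternatives. Fibroblast markers summed to 318 in iPS-OSH against 57.1 in iPS-J, and endoderm markers to 36.9 in iPS-OSH against 206 in iPS-J, and their part in this difference was not tested.

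The genes lowest in iPS-OSH relative to iPS-J were Aurkb at -2.59, Bub1 at -1.19 and Ccnb2 at -1.19. Bub1 had 6.20 in iPS-OSH and 14.2 in iPS-J, 2.29-fold less, and Ccnb2 had 20.0 in iPS-OSH and 45.6 in iPS-J, 2.27-fold less. Cenpe followed with 8.88 in iPS-OSH and 17.5 in iPS-J, and Rfc4 with 12.5 in iPS-OSH and 24.3 in iPS-J. The genes highest in iPS-OSH were Tyms at 0.44, Ccne1 at 0.38 and E2f3 at 0.22, none of them a mitosis gene. The helicase subunits had a median of -0.15, which turned to 0.19 in the deposited values, whereas the A and B cyclins with Cdk1 had a median of -0.76, between -0.77 and -0.43 over the alternatives.

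**Figure D5:**
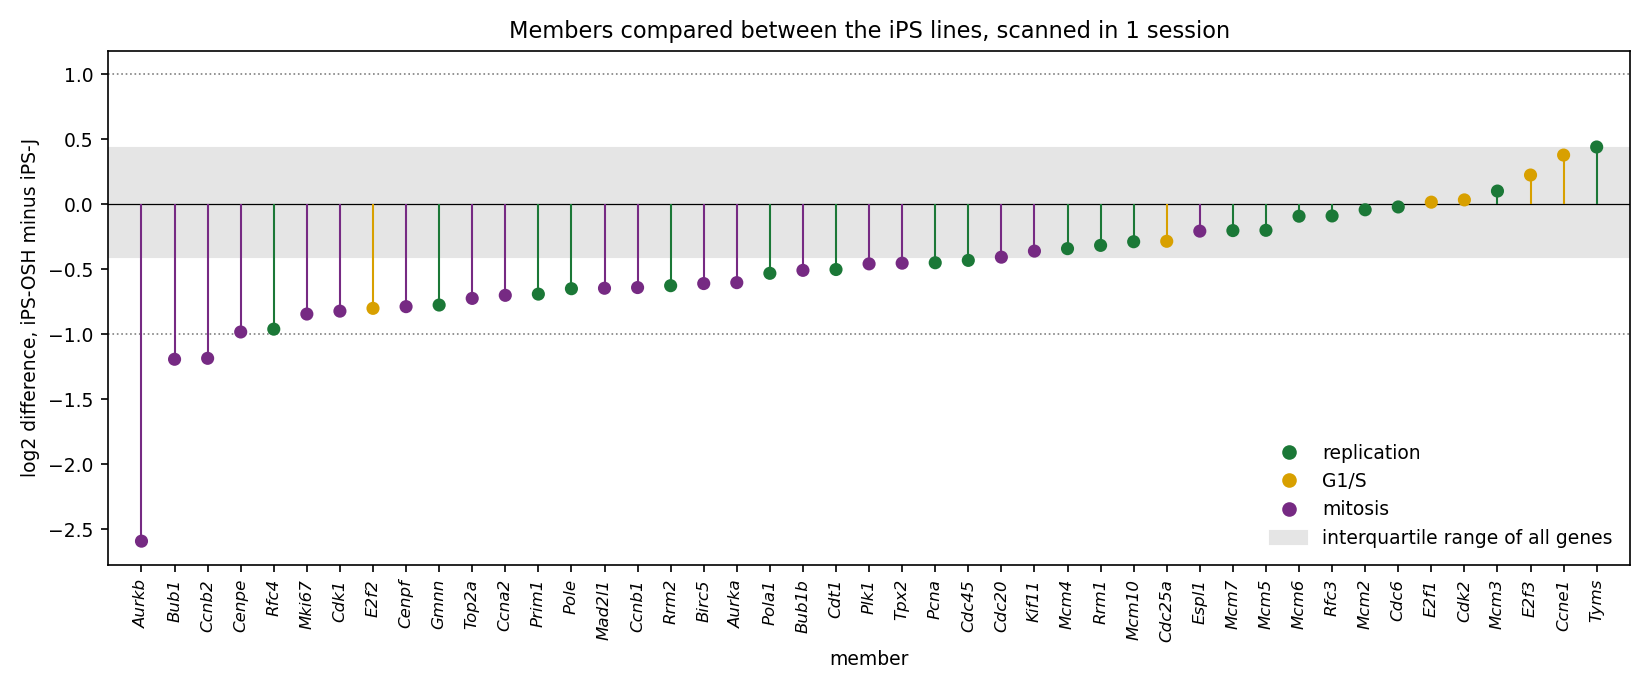
Log2 difference of iPS-OSH minus iPS-J (y axis) for the 45 members compared, in order of size and coloured by group, with the interquartile range of all genes in grey and dotted lines at 2-fold. The 19 mitosis genes all lie below 0, Aurkb lowest at -2.59, and the 6 genes above 0 are replication and G1/S genes.

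Against ESC, iPS-OSH showed a split between the groups and no overall shift that held. Among 45 members, 0 stood at least 2-fold above ESC and 2 at least 2-fold below, where 8.85% and 27.6% of all genes were so. The median of all members was -0.07, that of the replication genes 0.04, of the G1/S genes 0.25 and of the mitosis genes -0.32, and the median of all genes was -0.30. Direction depended on scaling: the mitosis median turned to 0.06 and the median of all members to 0.30 with spike-in scaling, and 23 of 45 members changed sign under some alternative. Aurkb was lower by 2.30 and Cenpe by 1.22 on the log2 scale, and Rfc4 followed at -0.63. Ccne1 was highest relative to ESC, with 48.8 in iPS-OSH against 26.3 in ESC (0.89), followed by Mcm3 (0.53) and Cdc20 (0.48).

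By its medians iPS-J stood slightly above ESC in all groups. Of 45 members, 1 was at least 2-fold higher and 0 lower, where 5.5% and 25.9% of all genes were so. The medians were 0.36 for replication, 0.38 for G1/S and 0.44 for mitosis genes, against -0.21 for all genes, and over the alternatives the median of all members stayed between 0.17 and 0.59. Cdk1 was the gene at 2-fold, with 14.1 in iPS-J against 7.03 in ESC, and Cdc20 (0.89) and Gmnn (0.85) came next. The Cdk1 difference of 1.01 lay within 1 technical SD (0.18) of the limit. Of its dimmer probes 1 gave 1.03 and the other -0.32. Tyms (-0.51), E2f3 (-0.41) and Cenpe (-0.24) lay lowest. Endoderm markers summed to 206 in iPS-J against 37.6 in ESC, and their part in this difference was not tested.

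Over the 4 arrays, 32 of the 46 members had their highest signal in iPS-J, where 18.4% of all genes did. iPS-OSH was highest for 4 members, ESC for 6 and MEF for 4, where 10.8%, 35.7% and 35.1% of all genes were highest there. By group, 15 of 20 replication, 2 of 7 G1/S and 15 of 19 mitosis genes were highest in iPS-J. The count in iPS-J depended on scaling and ran from 22 in the deposited values to 38 with centring on the median of all genes.

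Other genes of the same pathways, taken from general lists, lay farther above MEF for replication than for mitosis too, and the other G1/S genes lay lowest. Of 52 other replication genes, 17, 28 and 21 (iPS-OSH, iPS-J and ESC) were at least 2-fold higher than in MEF, and 2, 2 and 3 were lower, with medians of 0.73, 1.08 and 0.84. The shares of all genes were 13.7%, 16.2% and 22.6% higher and 25.1%, 26.2% and 16.7% lower. Of 89 other mitosis genes, 14, 30 and 26 were higher and 3, 1 and 3 lower, with medians of 0.27, 0.76 and 0.50. Of 23 other G1/S genes, 4, 4 and 1 were higher and 1, 3 and 3 lower, with medians of 0.07, 0.44 and -0.01. In iPS-OSH and ESC the other mitosis genes at least 2-fold higher were thus not far above the share of all genes. The other G1/S genes were near that share in the iPS lines and below it in ESC. Between the iPS lines, 76 of the 89 other mitosis genes were lower in iPS-OSH than in iPS-J (median -0.48), as were 41 of the 52 other replication genes (median -0.25).

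Among these genes Mybl2, the B-Myb factor that drives genes of both S phase and mitosis, had relative signals of 121 for iPS-OSH, 140 for iPS-J and 99.5 for ESC against 7.05 for MEF. Dna2, a nuclease and helicase of the fork, had 2.04 for iPS-OSH, 2.15 for iPS-J and 1.55 for ESC against 0.252 for MEF. Rif1, which sets the timing of replication, had 6.29 for iPS-OSH, 5.34 for iPS-J and 6.17 for ESC against 0.821 for MEF. All of these had log2 differences from MEF of 2.62 or more in the 3 lines. Ticrr, the activator of origin firing also called treslin and printed under an older name, had 9.21 for iPS-OSH, 6.34 for iPS-J and 6.49 for ESC against 1.33 for MEF. Rfc5, a clamp loader subunit, had 30.2 for iPS-OSH, 43.6 for iPS-J and 37.8 for ESC against 8.20 for MEF. Of the kinetochore genes, Cenpk, Cenpw and the spindle gene Hmmr were the lowest other mitosis genes in iPS-OSH relative to iPS-J, at -1.57, -1.32 and -1.22. Cenpk had 2.23 in iPS-OSH and 6.62 in iPS-J.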

How the data were processed

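RNA of 4 cell populations was measured on 1-colour Agilent arrays, 1 array per population, so no comparison has a test. The deposited scanner values are background-subtracted processed signals (intensity units) written by Agilent Feature Extraction 10.5.1.1, per the file headers, with probe positions on mm9. A deposited value table holds the same intensity values rounded and unscaled (largest deviation 0.497%). Here spots flagged as uneven or outlying were dropped, spots of a probe were averaged, the brightest probe of each gene by its mean over the arrays was kept, each signal was divided by the 75th percentile of its array over 59305 non-control spots, and log2 differences were taken with Python 3.11.15, numpy 2.4.6 and pandas 2.3.3. A probe not well above background on 1 array gives a bound against the higher of its own signal and the lowest signal well above background there. Genes named are all members, and for the other lists those with the largest differences each way. Members and lists were chosen with earlier results of these data known. Alternatives changed the background correction (limma 3.58.1 in R 4.3.3, normexp with offset 50), the scaling, the probe rule, the detection rule and the fold limit. The steps were tested on simulated data. Promoter sequences are RefSeq's, GRCm38. The number of arrays limits the precision.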

Additional observations from a re-analysis of the deposited data

Results flagged for a closer look

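Aurkb was the single member whose signal stood on opposite sides of MEF by more than 2-fold in the iPS lines. It was lower than MEF by 1.41 on the log2 scale in iPS-OSH and higher by 1.18 in iPS-J, a gap of -2.59 between the lines. Both values share the MEF array, the difference was not tested, and the probe is dim. With normexp background correction the gap was -1.55, between -0.71 in iPS-OSH and 0.84 in iPS-J, both under 2-fold. With a detection limit taken from the ERCC control probes, neither iPS-OSH nor MEF passed it, so iPS-OSH minus MEF had no value and the opposite directions could no longer be called. There iPS-J stood above MEF by at least 0.50 and iPS-OSH below iPS-J by at least 1.15 on the log2 scale, both bounds.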

How the results depend on the processing

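The median differences of all members from MEF stayed above 0 in every alternative run. In iPS-OSH the median of 0.72 moved to 1.06 with centring on the median of all genes and 0.55 in the deposited values. In iPS-J the median of 1.17 moved to 0.86 with spike-in scaling, 1.48 with centring and 0.67 in the deposited values. In ESC the median of 0.86 moved to 1.11 with a percentile taken over detected probes alone, 0.37 with scaling to spike-ins and 0.43 in the deposited values. Members at least 2-fold higher than MEF numbered 11 in ESC with scaling to spike-ins and 11 in the deposited values, and 17 in iPS-J in the deposited values. A 4-fold limit left 3 for iPS-OSH, 11 for iPS-J and 4 for ESC, by its own construction. For iPS-OSH minus ESC the median of -0.07 moved to -0.26 with the percentile over detected probes, 0.30 with spike-in scaling, 0.23 with centring and 0.19 in the deposited values. For iPS-J minus ESC the median of 0.37 moved to 0.17 with quantile normalization, 0.17 with the percentile over detected probes and 0.59 with centring. For iPS-OSH minus iPS-J the median of -0.46 moved to -0.27 with scaling to spike-ins and -0.13 in the deposited values. Scaling moved all genes as well: their median difference from MEF was -0.45 for iPS-OSH, -0.61 for iPS-J and -0.37 for ESC with spike-in scaling. Beyond that the cause was not tested. No paired analysis was possible because each population has 1 array.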

Other observations

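Several genes of the wider replication and mitosis lists stood apart from the members. Prim2, the large primase subunit, had relative signals of 2.77 for iPS-OSH, 3.93 for iPS-J and 0.548 for ESC against 4.94 for MEF, so it was low in ESC alone. Aurkc, the Aurora kinase known from germ cells, had 0.819 for iPS-OSH, 0.788 for iPS-J and 6.39 for ESC against 0.290 for MEF. It was by far highest in ESC, and the iPS lines also lay above MEF. In ESC the strain, the scan session and the cell type cannot be told apart.

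A few genes ran against the members and were highest in MEF. Cenpb, a centromere protein gene, had 5.53 for iPS-OSH, 2.74 for iPS-J and 1.82 for ESC against 14.1 for MEF. E2f6, a repressing E2F factor, had 3.32 for iPS-OSH, 3.31 for iPS-J and 2.77 for ESC against 8.03 for MEF. Pold4, a small subunit of polymerase delta, differed from MEF by -1.32 for iPS-OSH, -1.65 for iPS-J and -2.05 for ESC, and Rrm2b, the ribonucleotide reductase subunit induced by p53, by -1.13, -1.04 and -1.38. Rbl2, the gene of the pocket protein p130, was higher in iPS-OSH than in iPS-J by 1.71 and than in ESC by 1.05.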
